A study of Homo sapiens with 24 samples.

Results

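The comparison described here is the first 8 h of C/EBPδ induction in a human pancreatic cancer cell line. It was drawn from a series of 24 RNA-seq libraries, of which 6 enter directly, namely 3 libraries of C/EBPδ-inducible cells taken before doxycycline (0 h) and 3 taken after 8 h. C/EBPδ-inducible cells are MIA PaCa-2 cells, an established line from a human pancreatic carcinoma, that carry a lentiviral pCW57 Tet-On vector in which the transactivator and the CEBPD cDNA behind a doxycycline-responsive promoter lie on the same construct. CTRL cells are MIA PaCa-2 cells with the same construct but no CEBPD cDNA. Both lines received doxycycline at 2 µg/mL and were harvested at 0, 8, 24 and 48 h, with 3 wells in each of the 8 groups. The sample labels list the same doxycycline dose for the 0 h wells, whereas the study's methods describe 0 h as cells without doxycycline. As a model the inducible line is a pool of 3 clones, each marked by mVenus, while CTRL cells carry mCherry, so the lines differ by clonal origin as well as by the cDNA. The study describes its construct as leaky, with CEBPD mRNA raised in the inducible cells before any doxycycline, and 0 h is therefore a baseline with some CEBPD expression. Within a line, hours in doxycycline and hours in culture advance together and cannot be told apart, and CTRL cells are therefore set beside the main results. The p-values measure only the spread between wells of a single experiment.

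C/EBPδ belongs to a family of basic leucine zipper transcription factors that bind DNA as homodimers or as heterodimers with each other. In most tissues its gene is expressed at a low level and is switched on quickly by inflammatory cytokines, hypoxia or growth arrest. Family members share a palindromic DNA element and take part in the acute phase response, adipocyte differentiation and cell cycle exit, and some of them, including C/EBPγ, C/EBPβ and CHOP (the product of DDIT3), also act in the integrated stress response, the program through which ATF4 raises amino acid transport and synthesis.

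CEBPD (ENSG00000221869, chromosome 8), the induced gene, checks the labels. It was at 18.9, 23.5 and 22.3 CPM (counts divided by the depth of their library after TMM scaling) in the 3 libraries at 0 h and at 267, 239.6 and 242 CPM in the 3 at 8 h. Every library at 8 h lay far above every library at 0 h. Means with their SD over 3 wells were 21.6 ± 2.36 and 249 ± 15.3 CPM, an 11.5-fold rise (log2 fold change 3.52, SE 0.056, edgeR adjusted p = 6.75e-21). The level was 307 ± 12.6 CPM at 24 h and 204 ± 7.16 CPM at 48 h. In CTRL cells it was lower already at the start, 3.95 ± 0.247 CPM at 0 h and 1.9 ± 0.535 CPM at 8 h. The table counts all reads of the gene, so transcripts of the construct and of the endogenous gene cannot be told apart.

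The 6 libraries held between 12731237 and 22053973 counts, and 3 counts, the floor used here for a level of 0, corresponded to 0.138 to 0.236 CPM. Intervals and floors cover counting error only. The library of inducible cells at 8 h, replicate 3, stood apart. It was the shallowest, and the mitochondrial ribosomal RNAs MT-RNR2 and MT-RNR1 reached 5165 and 1066 CPM in it, against 55.9 to 133 CPM and 9.0 to 30.4 CPM in the other 5. The result of 3 DEGs turned with this library, since MT-RNR1, MT-RNR2 and the unnamed gene ENSG00000277048 were called higher with it and lower without it, and none of the 3 is used below. Without this library 4345 DEGs were called and 4145 of the DEGs of the full comparison were kept. Whether it had a part in other results was not tested beyond the values given without it. Markers of other pancreatic cell types were sparse in the 6 libraries: 8 of 9 acinar markers and 6 of 6 endocrine markers were at 0 in all 6, and summed immune markers lay at 4.45 to 8.94 CPM at 0 h and 3.95 to 4.74 CPM at 8 h. Of the 12 ductal markers, 6 were expressed highly enough to test, with sums of 302 to 316 CPM at 0 h and 266 to 274 CPM at 8 h.

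Across the transcriptome, 15395 genes were tested and 4693 were differentially expressed genes (DEGs) at a false discovery rate (FDR) of 0.01 by edgeR's quasi-likelihood test. These were 30.5% of the genes tested, and 2253 of them were higher (14.6%) and 2440 lower (15.8%) at 8 h. Most changes were small. The median size of the change among DEGs was 0.28 on the log2 scale, 2081 DEGs (44.3%) changed by less than 1.2-fold, and 205 (4.37%) changed by 2-fold or more, 128 of them upwards (0.831% of genes tested) and 77 downwards (0.5%). The libraries at 8 h did not overlap with those at 0 h for 7646 genes (49.7%). An exact permutation test of 3 against 3 libraries cannot give a two-sided p below 0.1, so the calls rest on the fit over all genes. In bulk RNA, fewer cells that express a gene and less RNA per cell cannot be told apart. An analysis of variance, the test of the study, called 1239 genes. Counts of DEGs over gene groups are to be read beside these percentages, and a share called near 30.5% does not set a group apart.

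**Figure D1:**
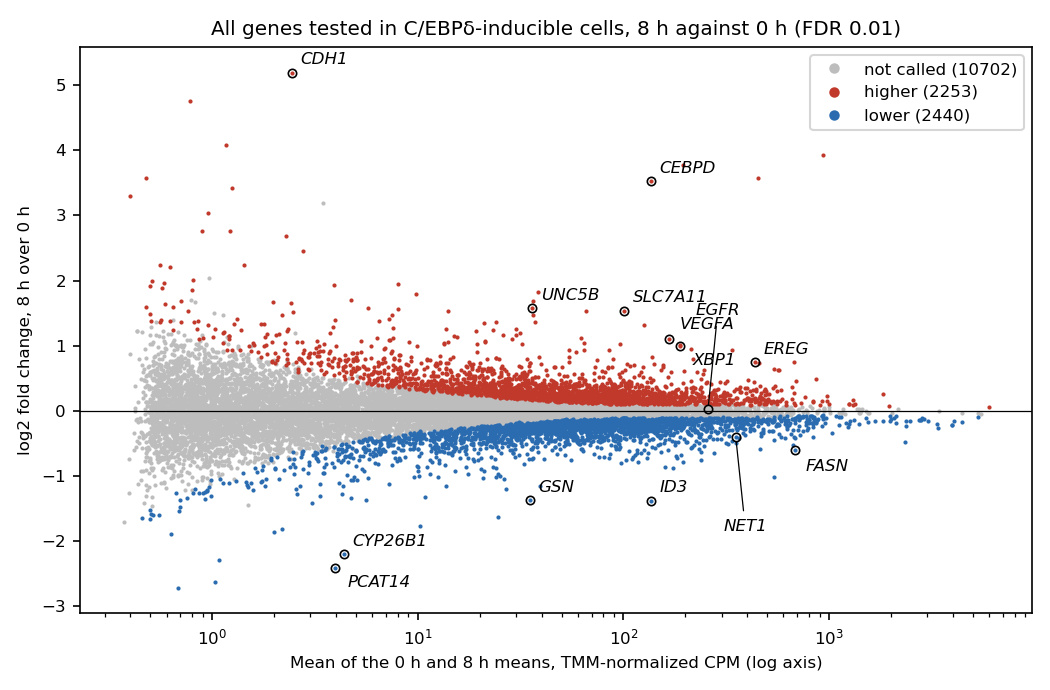
Mean expression level (x axis, CPM on a log scale) against the log2 fold change of 8 h versus 0 h (y axis) for each of the 15395 genes tested in C/EBPδ-inducible cells, with DEGs at FDR 0.01 in colour (2253 higher, 2440 lower) and other genes in grey. CEBPD lies at 3.52, the 3 unlabelled genes near it in height at high expression are those that turned with the library that stood apart, and most DEGs lie close to 0.

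Besides CEBPD, the largest increases were those of genes that were nearly silent at 0 h. CDH1, which encodes E-cadherin of epithelial adherens junctions, was at 0, 0.138 and 0.225 CPM at 0 h and at 4.42, 3.65 and 6.21 CPM at 8 h. Summed over the libraries it went from 7 to 233 counts. After scaling for depth the ratio was 38.1 with an exact 95% interval of 18.2 to 95.9 (edgeR adjusted p = 9.99e-10). CTRL cells held CDH1 at 1.05 ± 0.461 CPM at 0 h and 0.709 ± 0.494 CPM at 8 h. An antisense transcript overlaps CDH1, and because the strand setting of the counting is not given, reads of the 2 cannot be told apart. GPNMB, a transmembrane glycoprotein of lysosomes, rose from 3 to 82 counts (ratio 31.3 with a 95% interval of 10.3 to 155, edgeR adjusted p = 1.41e-06) and lay at 1.68, 2.14 and 0.707 CPM at 8 h. PI3, the elastase inhibitor elafin, rose from 7 to 107 counts (ratio 17.5 with a 95% interval of 8.21 to 44.6, edgeR adjusted p = 7.46e-06), with 0.684, 2.71 and 3.3 CPM at 8 h. These intervals are wide because the 0 h libraries held few reads. In the test of whether the change differed between lines, CDH1 and GPNMB were called and PI3 was not.

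Adhesion and matrix molecules were part of the remaining large increases. No gene named in this paragraph was called in the test of the difference between lines. COL12A1, a fibril-associated collagen, went from 0.107, 0.138 and 0.394 to 2.68, 1.35 and 1.02 CPM (ratio 8.59 with a 95% interval of 4.68 to 17.2), and ALCAM, an immunoglobulin-type adhesion molecule, went from 0.320, 0.229 and 0.113 to 1.47, 1.51 and 1.73 CPM (ratio 6.96 with a 95% interval of 3.85 to 13.7). THBS1, which encodes thrombospondin-1 of the extracellular matrix, was at 0.160, 0.183 and 0.282 CPM and then 0.631, 0.834 and 1.65 CPM. Its ratio was 4.68 with a 95% interval of 2.45 to 9.66 (edgeR adjusted p = 0.000557). THBS1 was not called by edgeR with all 24 libraries (adjusted p = 0.24). In the analysis of variance neither THBS1 (adjusted p = 0.0819) nor COL12A1 (adjusted p = 0.0584) was called. FUT1, the fucosyltransferase that makes the H antigen, rose from 0.307 ± 0.0224 CPM to 2.12 ± 0.352 CPM (SD, n = 3; edgeR adjusted p = 3.72e-07), and DMKN, an epidermal secreted protein gene, rose from 0.616 ± 0.221 CPM to 3.97 ± 0.407 CPM (SD, n = 3; edgeR adjusted p = 1.87e-08). FAM167A (log2 fold change 2.46) and VLDLR-AS1 (log2 fold change 2.23), a transcript antisense to the lipoprotein receptor gene VLDLR, were also among the largest increases. For FAM167A the CTRL cells also rose, by 1.89 on the log2 scale (edgeR adjusted p = 0.000566), and the difference between lines was not called (log2 difference 0.59, edgeR adjusted p = 0.274).

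**Figure D2:**
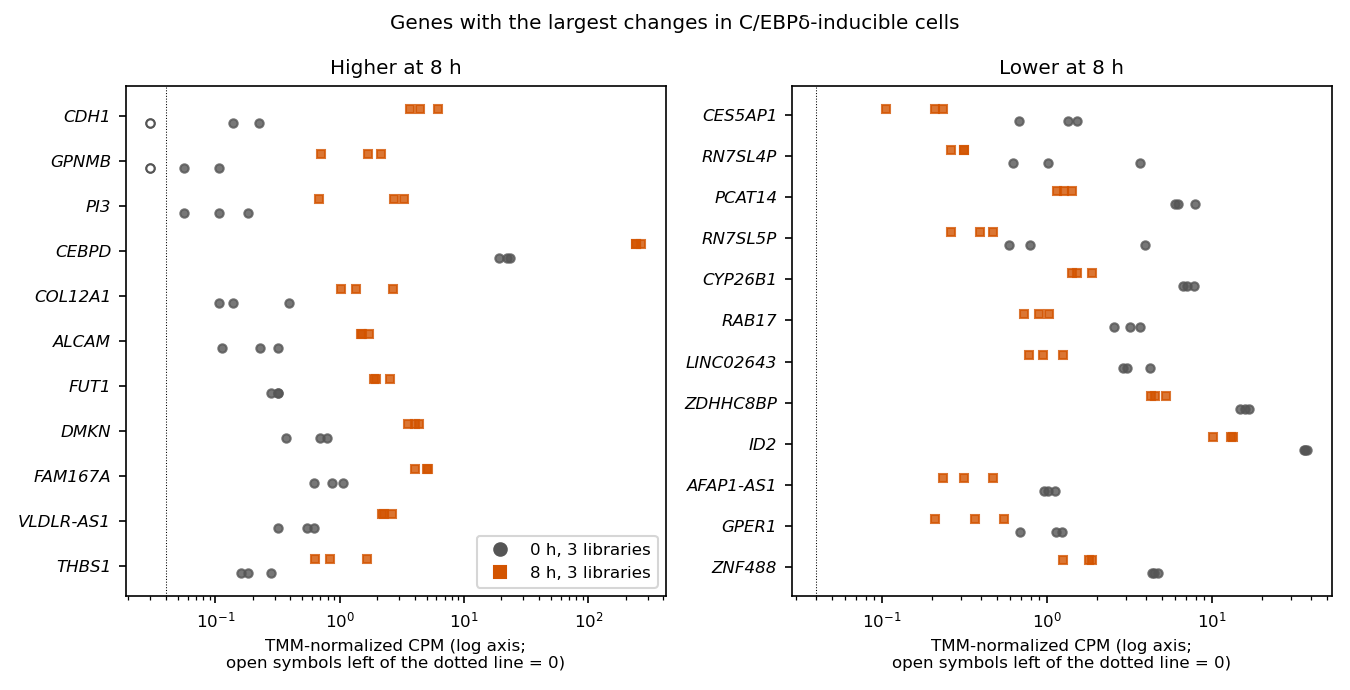
Expression (x axis, CPM, log scale) of 11 of the DEGs with the largest increases and the 12 with the largest decreases, with grey circles for the 3 libraries at 0 h and orange squares for the 3 at 8 h, open symbols standing for a level of 0. Groups that do not overlap were a condition for choosing the 23 genes. RN7SL4P and RN7SL5P show a lone high library at 0 h.

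Among the largest decreases, 3 genes lie next to each other on chromosome 22 (GRCh38): PCAT14, a long non-coding RNA (23536881 to 23547797, plus strand), and the transcribed pseudogenes ZDHHC8BP (23397938 to 23402157, minus strand) and CES5AP1 (23359603 to 23377014, minus strand). PCAT14 fell from 7.89, 6.19 and 5.97 CPM to 1.26, 1.15 and 1.42 CPM (log2 fold change -2.41, SE 0.18, edgeR adjusted p = 9.72e-10). ZDHHC8BP fell from 16.7, 14.7 and 15.8 CPM to 4.26, 4.53 and 5.27 CPM (log2 fold change -1.77, SE 0.11, edgeR adjusted p = 2.69e-11), and CES5AP1 fell from 70 to 9 counts (ratio 0.147 with a 95% interval of 0.0647 to 0.296, edgeR adjusted p = 5.1e-05). The libraries of the 2 time points were fully separate for each, which was a condition for naming the largest changes. In CTRL cells the log2 fold change at 8 h was -0.24 for PCAT14, -0.47 for ZDHHC8BP and -0.03 for CES5AP1, none of them called.

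CYP26B1, the enzyme that clears retinoic acid, fell from 6.67, 7.79 and 7.1 CPM to 1.42, 1.51 and 1.89 CPM (log2 fold change -2.20, SE 0.16, edgeR adjusted p = 4.85e-10). RAB17, a GTPase of epithelial membrane traffic, fell from 3.13 ± 0.569 to 0.882 ± 0.146 CPM (SD, n = 3; edgeR adjusted p = 1.77e-06), and the long non-coding RNA LINC02643 fell from 3.38 ± 0.733 to 0.996 ± 0.242 CPM (SD, n = 3; edgeR adjusted p = 2.71e-06). ZNF488, a zinc finger repressor, fell by 1.42 on the log2 scale, and fell by 1.05 in CTRL cells. AFAP1-AS1 (log2 fold change -1.54) and GPER1 (log2 fold change -1.48), a G protein-coupled estrogen receptor, were called with all 6 libraries but not in every fit that left out a library, where the adjusted p of edgeR rose to 0.0119 and 0.0431. RN7SL4P and RN7SL5P, pseudogenes of the abundant 7SL RNA whose near-identical copies make their counts uncertain, rest on replicate 2 at 0 h, with 3.67 and 3.94 CPM there against 0.587 to 1.01 CPM in the other 2 libraries. Without that library the log2 fold change of RN7SL4P was -1.46 (edgeR adjusted p = 0.0194) and that of RN7SL5P was -0.87 (edgeR adjusted p = 0.158). No gene named in this paragraph was called in the test of the difference between lines.

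The rest of the C/EBP family moved less than CEBPD. Of the 5 members tested, 4 were higher and none was called lower. CEBPG, the small family member that pairs with ATF4, rose from 98.5, 99.2 and 93.2 CPM to 145, 148 and 148 CPM (log2 fold change 0.59, SE 0.033, edgeR adjusted p = 6.1e-12). CEBPB, an inflammatory and stress-responsive member, rose from 35, 40.01 and 38.8 CPM to 53.4, 49.4 and 47.7 CPM (log2 fold change 0.40, edgeR adjusted p = 2.75e-06), and DDIT3 rose by 0.50 (edgeR adjusted p = 0.000507), with 2 antisense genes overlapping it. CEBPA, the differentiation-associated member, was at 15.1, 16.2 and 13.8 CPM and then 12, 12.5 and 13.2 CPM (log2 fold change -0.28, edgeR adjusted p = 0.011), just outside the threshold and inside it without replicate 3 of either time point. CEBPE held a total of 1 count and was not tested. CTRL cells, which carry no CEBPD cDNA, showed increases of CEBPG (log2 fold change 0.79), CEBPB (0.94) and DDIT3 (1.12) over the same 8 h, all 3 called. The rise of CEBPB was smaller in the inducible cells in the test of the difference (log2 difference -0.52, edgeR adjusted p = 0.00677).

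Sequences just before transcription starts were searched for 2 patterns on both strands: TTGCNNAA, which covers the C/EBP palindrome TTGCGCAA and its variants, and TGATGNAA, the C/EBP-ATF response element through which C/EBP and ATF4 dimers act. The windows were RefSeq's for GRCh38.p14, 300 bases each, and no site of 8 letters can match both patterns. TTGCNNAA occurred in 10.5% of all 35116 windows, in 7.47% of the 14667 windows of genes tested, in 8.45% of those of higher DEGs and in 6.86% of those of lower DEGs. Among DEGs that changed more than 2-fold it was in 14.7% of 150 windows of higher genes and in 12.8% of 47 windows of lower genes. TGATGNAA was in 1.9% of windows of genes tested, in 3.46% for higher DEGs and in 0.94% for lower DEGs, in 9.33% for the more than 2-fold higher and in none of the 47 for the more than 2-fold lower. The windows of DEGs that changed more than 2-fold came from 83 of 128 higher and 34 of 77 lower genes. With 1.9% over genes tested, 47 windows are too few for the absence of a match to be read as a lack. A match is a description of letters and not of binding, and several windows of a gene can overlap. Of the 106 named genes with a window, 19 held the first pattern and 7 the second. The sequences printed here were picked among genes with a match, so they do not show how common a match is. The stretch before CEBPG is shown because CEBPG rose in both lines and holds the second pattern, in capitals 42 bases before the start, on the strand of the gene (GRCh38.p14, chr19:33374060-33374089, plus strand).
CEBPG: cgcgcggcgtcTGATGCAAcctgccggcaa

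Genes of the integrated stress response rose together. Of 34 listed genes 32 were tested, and 27 were higher and none lower, against 14.6% and 15.8% over all genes. Their median log2 fold change was 0.65, where that of all genes was -0.01. TRIB3, a pseudokinase that restrains ATF4, rose from 16.2, 17.9 and 16.1 CPM to 62.4, 55.8 and 62.1 CPM (log2 fold change 1.83, SE 0.06, edgeR adjusted p = 1.49e-15). SLC7A11, the cystine importer, rose from 52.6, 50.2 and 51.7 CPM to 149.8, 152 and 149 CPM (log2 fold change 1.54, SE 0.033, edgeR adjusted p = 1.15e-18). CHAC1, which breaks down glutathione, rose from 7.14, 7.65 and 6.76 CPM to 21.6, 20.9 and 19.97 CPM (log2 fold change 1.53, SE 0.085, edgeR adjusted p = 7.93e-12). For all 3 the lowest library at 8 h was far above the highest at 0 h. VLDLR rose by 1.48 log2 units, and further down the list came SESN2 (1.37), DDIT4 (1.32), ATF3 (1.27), the asparagine synthetase gene ASNS (1.01), the serine synthesis genes PSAT1 (0.95) and PHGDH (0.70), and ATF4 itself (0.79). ATF5, NUPR1, SLC38A2, CBS and GDF15 were tested and not called. TGATGNAA was found in windows of 8 of the 28 genes of this list with a window, 18.2% of their 44 windows, and the site of CHAC1 is shown as the example that also differed between the lines. It lies 209 bases before the start, and its capitals read TTGCATCA, the second pattern on the opposite strand (GRCh38.p14, chr15:40953251-40953280, plus strand).
CHAC1: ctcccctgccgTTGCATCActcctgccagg

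The same list also rose in CTRL cells. There 24 of 31 genes were higher and none lower at FDR 0.01, where only 0.905% of all genes were called higher, and the median was 1.07. In the test of the difference between the lines, 6 of 33 list members rose less in the inducible cells and none rose more. SLC7A11 was at 11.6 ± 0.329 CPM in CTRL cells at 0 h and 75.7 ± 12.7 CPM at 8 h (SD, n = 3), a log2 fold change of 2.73, and its difference between lines was -1.17 (SE 0.13, edgeR adjusted p = 0.00011). CHAC1 rose by 3.05 log2 units in CTRL cells and differed by -1.50 (SE 0.17, edgeR adjusted p = 0.000129). DDIT4 (-0.59), CEBPB (log2 difference -0.52), ATF4 (-0.39) and ASNS (-0.38) were the other 4. For SLC7A11 and CHAC1 the 0 h levels were higher in the inducible cells, at 51.5 ± 1.21 and 7.18 ± 0.449 CPM (SD, n = 3), than in CTRL cells, at 11.6 ± 0.329 and 2.35 ± 0.371 CPM. TRIB3 rose by 1.63 in CTRL cells, and a difference between lines was not detected (log2 difference 0.23, edgeR adjusted p = 0.2). VEGFA, an angiogenic growth factor that hypoxia and ATF4 both raise, also moved in both lines: 104, 105 and 108 CPM to 233, 229.5 and 223 CPM in the inducible cells (log2 fold change 1.10, edgeR adjusted p = 1.42e-16), 1.49 in CTRL cells, and a log2 difference of -0.36 (edgeR adjusted p = 0.00491).

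**Figure D3:**
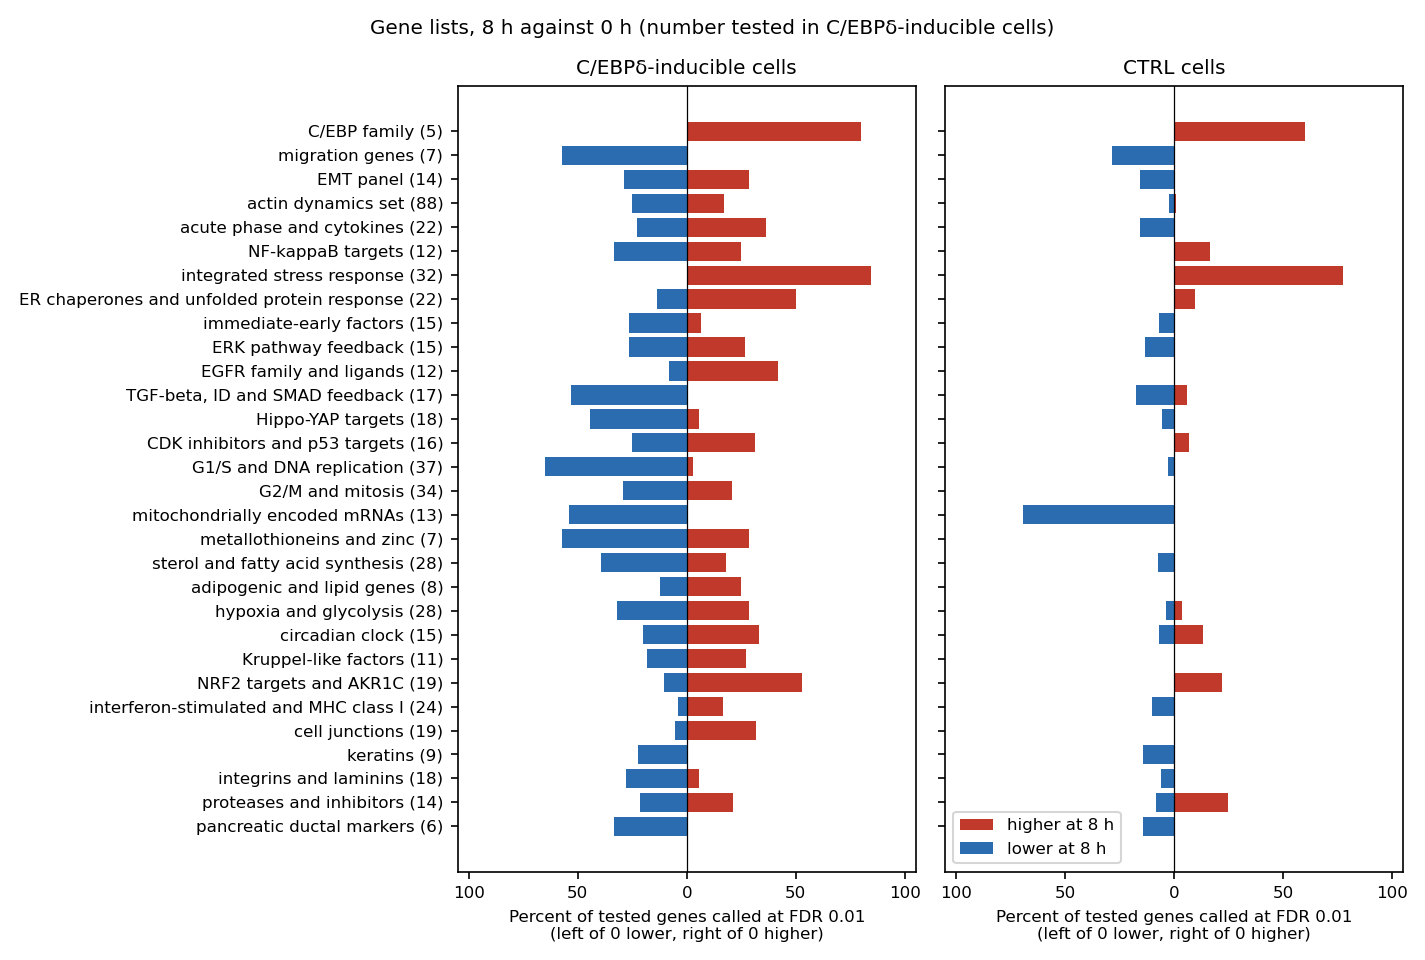
Percentage of the tested members of each gene list (y axis, list) that were DEGs at FDR 0.01 (x axis, percent; higher to the right, lower to the left) in C/EBPδ-inducible cells (left panel) and in CTRL cells (right panel), with the number tested in the inducible cells in parentheses. In the integrated stress response list 27 of 32 and 24 of 31 genes were higher in the 2 lines, and TGF-beta and G1/S genes lie on the lower side in the inducible cells. Over all genes 30.5% were called in the inducible cells and 1.7% in CTRL cells, so bar lengths are not comparable between panels.

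Of 22 genes for chaperones and sensors of the endoplasmic reticulum (ER), 11 were higher and 3 lower (9 and 4 without the library that stood apart). XBP1, a transcription factor of ER stress, rose from 128, 120.5 and 128 CPM to 255, 241 and 258 CPM (log2 fold change 1.00, SE 0.036, edgeR adjusted p = 6.71e-15) and by 0.95 in CTRL cells, and its sensor ERN1 rose by 0.53 (edgeR adjusted p = 5.32e-08). The chaperone gene HSPA5 rose by 0.33 log2 units and differed from CTRL cells by 0.37 in the interaction. CREB3L1, a transcription factor that is cut from the ER membrane, fell by 0.62 log2 units (edgeR adjusted p = 5.36e-06) and SDF2L1, an ER chaperone subunit, fell by 0.58 (edgeR adjusted p = 5.27e-05).

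Inflammatory genes, the best known targets of the C/EBP family, showed a mixed picture. Of 49 listed acute phase, cytokine and receptor genes 22 were expressed highly enough to test, 8 were higher and 5 lower. By role, 5 of the 9 tested cytokines and chemokines were higher, and none of the 4 tested acute phase protein genes was called. CXCL2, a neutrophil chemokine, rose from 8.05, 8.57 and 7.38 CPM to 18.1, 20.5 and 19.3 CPM (log2 fold change 1.26, SE 0.088, edgeR adjusted p = 3.2e-10). It changed by 0.23 log2 units in CTRL cells, and the difference between the lines was 1.06 (SE 0.18, edgeR adjusted p = 0.00261). CXCL8 and CXCL3, chemokines of the same class, rose by 0.93 and 0.79 log2 units. IL6R, the interleukin-6 receptor, rose from 6.67, 5.54 and 5.35 CPM to 11.9, 12.8 and 11.9 CPM (log2 fold change 1.06, edgeR adjusted p = 6.09e-08). IL1B, an inflammatory cytokine (log2 fold change 1.18, edgeR adjusted p = 0.00303), and TLR3, a receptor for double-stranded RNA (log2 fold change 1.96, edgeR adjusted p = 0.00269), were called at low levels, 1.63, 2.19 and 3.93 and 1.1, 0.990 and 0.707 CPM at 8 h, and each was lost in at least 3 of the 6 fits that left out a library. The macrophage growth factor CSF1 and the cytokine signalling inhibitor SOCS3 fell by 0.74 and 0.64 log2 units. The 250 bases before the start of CXCL2 are shown because CXCL2 was the chemokine that differed most between lines, with the C/EBP pattern on the opposite strand in capitals 188 bases before the start (GRCh38.p14, chr4:74099196-74099445, minus strand).
CXCL2: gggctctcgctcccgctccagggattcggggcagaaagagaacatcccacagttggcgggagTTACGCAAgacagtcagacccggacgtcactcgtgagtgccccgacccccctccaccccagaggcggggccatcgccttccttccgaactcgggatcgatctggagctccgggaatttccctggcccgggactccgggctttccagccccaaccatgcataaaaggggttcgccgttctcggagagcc

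NF-kappaB pathway genes split likewise, with 3 of 12 higher and 4 lower (3 and 2 with DESeq2). In CTRL cells 2 of the 12 were higher and none was lower, and none of the 12 was called in the test of the difference between lines. TRAF1, an adaptor of tumor necrosis factor receptors, rose from 15.5, 19 and 19.8 CPM to 29.99, 32 and 32.8 CPM (log2 fold change 0.79, edgeR adjusted p = 2.77e-08), and TNFAIP3, the ubiquitin-editing inhibitor A20, rose by 0.63 (edgeR adjusted p = 7.09e-05). The change of TRAF1 in CTRL cells was 0.67 log2 units. BCL3, an IkappaB-like co-regulator, fell by 0.57 log2 units and NFKBIB, an inhibitor of NF-kappaB, fell by 0.24. Of 24 interferon-stimulated and MHC class I genes, 4 were higher and 1 lower (3 and 0 with DESeq2), 20.8% against 30.5% over all genes. In CTRL cells 2 of 20 were lower and none higher, and 2 of 25 had a positive difference between lines and none a negative one. OAS3, an antiviral RNA sensor, rose by 1.00 log2 units and IFIT1, which binds viral RNA, fell by 0.24, a call kept in 1 of the 6 fits that left out a library.

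Of 7 tested ligands of the epidermal growth factor receptor (EGFR) 4 were higher and none lower, while the receptor itself was not called. EREG, epiregulin, rose from 313, 341 and 324 CPM to 545, 572 and 530.3 CPM (log2 fold change 0.75, SE 0.032, edgeR adjusted p = 1.5e-13), changed by -0.03 in CTRL cells and differed between lines by 0.80 on the log2 scale (SE 0.12, edgeR adjusted p = 0.000795). HBEGF, heparin-binding EGF, rose from 10.8, 10.5 and 10.02 CPM to 18.8, 16.8 and 19.4 CPM (log2 fold change 0.79, edgeR adjusted p = 1.51e-07), BTC, betacellulin, rose by 0.71 (edgeR adjusted p = 0.00129) and AREG, amphiregulin, by 0.22 (edgeR adjusted p = 0.00382). The calls of BTC and AREG were lost when some libraries were left out, with adjusted p of edgeR up to 0.0125 and 0.0254. EGFR was at 253, 258 and 253 CPM at 0 h and 232, 265 and 288 CPM at 8 h (log2 fold change 0.03, SE 0.049, edgeR adjusted p = 0.652), with groups that overlapped. Downstream of these receptors, 4 of 15 feedback genes of the ERK pathway were higher and 4 lower. DUSP6, the phosphatase that switches off ERK, rose from 17.4, 20.7 and 18.3 CPM to 28, 28.9 and 28.1 CPM (log2 fold change 0.58, edgeR adjusted p = 5.53e-07), against -0.28 in CTRL cells and a log2 difference of 0.88 (edgeR adjusted p = 0.000122). SPRED2, another ERK inhibitor, rose by 0.35 log2 units, whereas SPRY4, of the Sprouty inhibitors, fell by 0.42 and CCND1, cyclin D1, fell by 0.48. Of the immediate-early factors 1 of 15 was higher and 4 were lower, 33.3% called against 30.5% over all genes. EGR1 rose from 28.8, 34.4 and 35.6 CPM to 49.6, 52.3 and 51.2 CPM (log2 fold change 0.62, edgeR adjusted p = 2.03e-08) and differed between lines by 0.83 on the log2 scale (edgeR adjusted p = 9.02e-05). JUND fell by 0.58 log2 units, FOSL1 fell by 0.38 and IER2 fell by 0.24.

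The study followed 7 genes in cell migration, chosen on this series, so that their direction is not independent evidence. It gave their changes at 24 h of induction against non-induced cells, so the 8 h values are for another time point. At 8 h 4 of the 7 were lower and none was called higher. GSN, gelsolin, which severs and caps actin filaments, fell from 51.5, 49.5 and 50.5 CPM to 20.3, 19.6 and 18.9 CPM (log2 fold change -1.36, SE 0.052, edgeR adjusted p = 1.59e-14). In CTRL cells it fell by 0.46 log2 units, and the fall was larger in the inducible cells (log2 difference -0.88, SE 0.087, edgeR adjusted p = 3.13e-05). MYPN, the actin-binding protein myopalladin, fell from 104, 107 and 118 CPM to 75.3, 74.2 and 75.4 CPM (log2 fold change -0.56, edgeR adjusted p = 4.35e-10), with -0.03 in CTRL cells and a log2 difference of -0.50 (edgeR adjusted p = 0.00109). ITGB4, the integrin of hemidesmosomes, fell by 0.49 in the inducible cells and fell by 0.48 in CTRL cells (log2 difference 0.01, edgeR adjusted p = 0.929). NET1, an exchange factor of RhoA, fell by 0.41 (log2 difference -0.29, edgeR adjusted p = 0.0131). The receptor tyrosine kinases EGFR and AXL and the transcription factor ETS1 were not called at 8 h: AXL was at 239 ± 8.14 CPM at 0 h and 227 ± 6.06 CPM at 8 h and ETS1 at 178 ± 6.02 and 184 ± 2.11 CPM (SD, n = 3). Between 8 and 24 h all 3 fell, with log2 fold changes of -0.94 for EGFR, -0.92 for AXL and -0.65 for ETS1 (edgeR adjusted p = 2.45e-11, 4.87e-14 and 8.64e-12). In the wider set of 138 actin regulators that the study drew on, 88 were tested, 15 were higher and 22 lower, a share of 42.0% against 30.5% for all genes. CARMIL2, a capping protein regulator, fell by 1.05 (edgeR adjusted p = 1.33e-06). PTK2B, the kinase PYK2, rose from 4.68 ± 0.535 CPM to 9.12 ± 1.05 CPM (edgeR adjusted p = 1.64e-06), and the phosphatase gene PPM1E rose from 9.13 ± 0.351 CPM to 16.6 ± 0.0980 CPM (SD, n = 3; edgeR adjusted p = 4.34e-08).

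Markers of epithelial-to-mesenchymal transition did not move in a common direction. The study's panel, also used on these samples but at 24 h, has 17 genes, one of them printed as SCD1 and read here as SCD. Of the 14 tested at 8 h, 4 were higher and 4 lower (3 and 4 without the library that stood apart, 3 and 2 with DESeq2). Besides CDH1, the mesenchymal repressor ZEB1 rose by 0.18 log2 units, the kinase GSK3B by 0.15 and the intermediate filament gene VIM by 0.06 (edgeR adjusted p = 8.15e-05, 0.00054 and 0.00098). SNAI2, the repressor SLUG, fell from 2.72, 2.89 and 2.2 CPM to 1.42, 1.35 and 1.49 CPM (log2 fold change -0.89, edgeR adjusted p = 0.00174). S100A4, a calcium-binding protein of motile cells, fell from 155, 147 and 144 CPM to 84.6, 86.9 and 88.9 CPM (log2 fold change -0.79, edgeR adjusted p = 1.96e-13), and fell by 0.71 in CTRL cells. COL4A1, basement membrane collagen, fell by 0.27 log2 units and SCD, a desaturase of lipid synthesis, fell by 0.52. SNAI1, CTNNB1, LAMB1, MUC1, ACTA2 and SUMO2 were not called, and FN1, CDH2 and MMP2 were too low to test. The calls of VIM, COL4A1 and SNAI2 were lost when some libraries were left out.

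Of the 19 cell junction genes tested, CDH1 among them, 6 were higher, 1 was lower and 12 were not called. The share called was 36.8%, against 30.5% over all genes. CLDN1, a tight junction claudin, rose from 94.2, 106 and 97.2 CPM to 178, 179 and 175 CPM (log2 fold change 0.83, SE 0.036, edgeR adjusted p = 1.62e-13), changed by -0.03 in CTRL cells and differed between lines by 0.89 on the log2 scale (edgeR adjusted p = 0.00016). CLDN12 rose by 0.73 (edgeR adjusted p = 9.04e-10), and CLDN4 fell from 13.4, 14.2 and 12.4 CPM to 6.74, 5.84 and 7.94 CPM (log2 fold change -1.0, edgeR adjusted p = 1.65e-07). Of 9 keratins, 2 were lower and none was called higher, a share called (22.2%) below that of all genes. KRT80 fell by 0.56 log2 units and KRT8 fell by 0.17. Among 18 integrin and laminin genes 1 was higher and 5 were lower, a share called (33.3%) near that of all genes. ITGA10, a collagen-binding integrin, fell from 13.4, 13 and 12.8 CPM to 7.05, 6.41 and 7.62 CPM (log2 fold change -0.92, edgeR adjusted p = 1.29e-07), with no called change in CTRL cells (0.04) and a log2 difference of -0.93 (edgeR adjusted p = 0.000469). The laminin genes LAMA5 and LAMB2 fell by 0.71 and 0.55 log2 units. Of 14 proteases and inhibitors 3 were higher and 3 lower. MMP1, interstitial collagenase, rose by 0.86 log2 units (edgeR adjusted p = 1.29e-05) from 5.8 ± 1.28 CPM (SD, n = 3), and CTRL cells expressed it at 1226 ± 9.94 CPM at 0 h. MMP3, stromelysin, was called higher (log2 fold change 1.26, edgeR adjusted p = 0.00347) and lost in 3 of the 6 fits that left out a library. PLAUR, the urokinase receptor, rose by 0.68 log2 units (edgeR adjusted p = 2.3e-10) and MMP15 fell by 0.44.

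Target, feedback and ligand genes of the TGF-beta and BMP pathways were lower or not called. Of 17 tested, 4 of them ligands, 9 were lower and none was called higher, and the median was -0.35. ID2, an inhibitor of differentiation that blocks helix-loop-helix factors, fell from 37.9, 36.5 and 36.3 CPM to 13, 10.1 and 13.4 CPM (log2 fold change -1.62, SE 0.078, edgeR adjusted p = 7.67e-13). ID3, of the same family, fell from 193, 198 and 201 CPM to 77.5, 73.7 and 77.8 CPM (log2 fold change -1.38, SE 0.034, edgeR adjusted p = 1.39e-17). SMAD6, an inhibitory SMAD, fell from 15.1, 15.7 and 15.7 CPM to 5.47, 6.67 and 6.76 CPM (log2 fold change -1.31, SE 0.098, edgeR adjusted p = 7.55e-10), and SMAD7, its relative, fell from 4.21, 4.77 and 4.79 CPM to 2.37, 2.14 and 1.73 CPM (log2 fold change -1.12, SE 0.17, edgeR adjusted p = 1.15e-05). For all 4 the libraries of the 2 time points were well apart. BAMBI (log2 fold change -0.49), PMEPA1 (-0.46), SKIL (-0.40), ID1 (-0.35) and TGFB1 (-0.29) were also lower. CTRL cells showed falls of ID2 (-0.74), ID3 (-0.68) and SMAD6 (-0.89) as well, and the test of the difference called ID2 (log2 difference -0.85, edgeR adjusted p = 0.00482) and ID3 (log2 difference -0.67, edgeR adjusted p = 0.00011) as falling further in the inducible cells. The call of ID2 in that test was kept in 3 of the 12 fits that left out a library and that of ID3 in 12 of 12. SMAD6 was not called in that test. The palindrome TTGCGCAA occurs in 0.151% of all windows and in 0.225% of windows of genes tested. SMAD6 was picked among the named genes for holding it, so how rare the word is says nothing about SMAD6. The 250 bases before SMAD6 are shown with the palindrome in capitals 47 bases before the start (GRCh38.p14, chr15:66701986-66702235, plus strand).
SMAD6: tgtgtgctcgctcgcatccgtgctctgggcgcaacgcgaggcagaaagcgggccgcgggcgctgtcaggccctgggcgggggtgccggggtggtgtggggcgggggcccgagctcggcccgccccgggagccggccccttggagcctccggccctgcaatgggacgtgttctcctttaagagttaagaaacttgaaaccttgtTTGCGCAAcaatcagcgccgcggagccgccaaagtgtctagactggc

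Of the targets of Hippo and YAP signalling 1 of 18 was higher and 8 were lower. CCN1, a secreted matricellular protein, fell from 406, 413 and 412 CPM to 297, 290.2 and 290.4 CPM (log2 fold change -0.50, edgeR adjusted p = 9.14e-12), AMOTL2, a junctional inhibitor of YAP, fell by 0.48, and ARHGEF17 and NUAK2 each fell by 0.43.

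Cell cycle genes were lower mainly at the G1/S step. Of 37 genes of DNA replication and S phase entry 24 were lower and 1 was higher, with a median of -0.14. In CTRL cells 1 of the 37 was lower and the median was -0.07. None of the 37 was called in the test of the difference between lines (3 lower with DESeq2), where the median was -0.07. UHRF1, which maintains DNA methylation, fell from 255, 263 and 253 CPM to 175, 176 and 176 CPM (log2 fold change -0.55, edgeR adjusted p = 5.03e-12). E2F1, the transcription factor of S phase genes, fell from 55.5, 56.6 and 53.2 CPM to 41.1, 36.4 and 35.6 CPM (log2 fold change -0.55, edgeR adjusted p = 1.63e-08), and CDT1, a licensing factor, fell by 0.43. MCM2, MCM3, MCM4, MCM5, MCM6 and MCM7, subunits of the replicative helicase, were all lower, with log2 fold changes of -0.34 to -0.14. RRM2, a subunit of ribonucleotide reductase, was the exception (log2 fold change 0.15). Mitotic genes divided, with 7 of 34 higher and 10 lower by the scaling used and 10 higher and 8 lower when counts were scaled by library totals alone. HMMR, a spindle protein, rose by 0.43 log2 units and the kinesin gene CENPE by 0.24, whereas CDC20, an activator of the anaphase-promoting complex, fell by 0.31 and FOXM1, a transcription factor of mitotic genes, fell by 0.26. Among 16 inhibitors of cyclin-dependent kinases and p53 targets, 5 were higher and 4 lower. GADD45A, a growth arrest gene, rose from 74.7, 80.2 and 81.3 CPM to 132, 128 and 130.2 CPM (log2 fold change 0.72, edgeR adjusted p = 7.35e-13) and by 0.92 in CTRL cells. The death receptor gene FAS rose by 0.72 log2 units, CDKN2C, the inhibitor p18, fell by 0.72, and GADD45B fell by 0.45 with a difference between lines of -0.53 (edgeR adjusted p = 0.00158). FAS changed by 0.44 in CTRL cells, and its difference between lines was not called.

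Of 28 genes of sterol and fatty acid synthesis 5 were higher and 11 lower. FASN, fatty acid synthase, fell from 808, 852 and 816 CPM to 546, 548 and 540.2 CPM (log2 fold change -0.61, edgeR adjusted p = 1.59e-14), and SCD, the stearoyl-CoA desaturase, fell from 803, 769 and 777 CPM to 557, 529.8 and 555 CPM (log2 fold change -0.52, edgeR adjusted p = 1.26e-12). In CTRL cells FASN changed by -0.31 log2 units (edgeR adjusted p = 0.0204) and SCD by -0.36 (edgeR adjusted p = 0.000796). The sterol pathway genes MSMO1 and SC5D rose by 0.74 and 0.53 log2 units. Of 8 adipogenic and lipid genes tested, PLIN2, which coats lipid droplets, rose from 37.8, 38 and 36.1 CPM to 72.1, 71.8 and 71.5 CPM (log2 fold change 0.94, edgeR adjusted p = 4.16e-14), and CPT1A, the gate of mitochondrial fatty acid oxidation, rose from 23.2, 26.4 and 24.7 CPM to 42.7, 44.2 and 42.5 CPM (log2 fold change 0.79, edgeR adjusted p = 2.12e-10). PLIN2 and CPT1A differed between lines by 0.60 on the log2 scale and 0.50 (edgeR adjusted p = 0.000182 and 0.00257). Of 9 hypoxia genes 5 were higher and none lower, among them VEGFA, BNIP3L (log2 fold change 0.49) and PDK1 (log2 fold change 0.43), regulators of mitophagy and of pyruvate oxidation. Of 19 glycolysis genes 3 were higher and 9 lower, the 9 with log2 fold changes of -0.31 to -0.11. SLC2A3, a high-affinity glucose transporter, rose from 54.1, 54.4 and 58.4 CPM to 88.4, 91.6 and 87.3 CPM (log2 fold change 0.68, edgeR adjusted p = 8.13e-12), and the difference from CTRL cells, where it changed by -0.22, was 0.92 (SE 0.062, edgeR adjusted p = 3.99e-07). NRF2 targets and AKR1C genes had 10 of 19 higher and 2 lower, with ABCC3 (log2 fold change 0.62), OSGIN1 (log2 fold change 0.43) and AKR1C2 (log2 fold change 0.36) after SLC7A11. The AKR1C genes are near-identical paralogs, and their counts are uncertain. Of the 7 metallothionein and zinc genes tested 4 were lower and 2 higher, and MT1A fell by 0.71 log2 units, MT1X fell by 0.56 and MT1G fell by 0.34, while the zinc exporter SLC30A1 rose by 0.45.

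Transcripts of the mitochondrial genome stood out for the comparison with CTRL cells. In the inducible cells 7 of 13 mRNAs were lower and none was called higher, with a median of -0.07 (6 lower and 1 higher without the library that stood apart, 3 lower and 1 higher with DESeq2, 1 lower and 1 higher with robust dispersions). In CTRL cells 9 of 13 were lower with a median of -0.36. MT-CO1, a subunit of cytochrome c oxidase, was at 4269 ± 65 CPM and then 3676 ± 172 CPM in the inducible cells and at 4512 ± 107 CPM and then 3193 ± 84.3 CPM in CTRL cells (SD, n = 3). In the test of the difference, 10 of 13 had a positive difference, MT-CO1 by 0.28 log2 units, MT-CO3 by 0.30 and MT-ND1 by 0.34 (edgeR adjusted p = 0.00104, 0.00537 and 0.00349), and the count was 7 with scaling by library totals, 7 with robust dispersions and 12 with DESeq2. The call of MT-CO3 was kept in 4 and that of MT-ND1 in 7 of the 12 fits that left out a library. The mitochondrial mRNAs made up 2.87 to 3.19% of the counts of the 6 libraries.

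Among the circadian regulators 5 of 15 were higher and 3 lower. NFIL3, a basic leucine zipper repressor of the clock output, rose from 8.96, 8.07 and 9.4 CPM to 18.1, 18.2 and 17.8 CPM (log2 fold change 1.03, SE 0.085, edgeR adjusted p = 3.92e-09), changed by 0.09 in CTRL cells and differed between lines by 0.97 on the log2 scale (edgeR adjusted p = 0.000459). Its counterpart DBP, an activator at the same DNA element, fell from 5.49, 6.19 and 5.58 CPM to 3.63, 3.44 and 4.09 CPM (log2 fold change -0.65, edgeR adjusted p = 0.000454; difference -0.73, edgeR adjusted p = 0.0115). PER1 fell by 0.45 log2 units and NR1D2 rose by 0.42. Of 11 Kruppel-like factors 3 were higher and 2 lower, with log2 fold changes of 0.92 for KLF5 and 0.22 for KLF13, of -0.51 for KLF2 and of -0.38 for KLF16. The 250 bases before NFIL3 are shown because it rose more in the inducible cells than in CTRL cells and holds the C/EBP pattern. The pattern is on the opposite strand, in capitals 35 bases before the start (GRCh38.p14, chr9:91424627-91424876, minus strand).
NFIL3: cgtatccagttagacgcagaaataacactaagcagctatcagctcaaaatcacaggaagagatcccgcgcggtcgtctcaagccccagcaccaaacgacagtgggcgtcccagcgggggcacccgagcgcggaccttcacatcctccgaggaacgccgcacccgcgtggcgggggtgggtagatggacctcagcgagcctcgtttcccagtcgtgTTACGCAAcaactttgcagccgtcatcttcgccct

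Among the markers of cell types, the 2 of 3 tested fibroblast markers that were called were lower, and 2 of 6 ductal markers were lower. The share of ductal markers called, 33.3%, was near the 30.5% of all genes. Of the ductal markers SOX9, a transcription factor of ducts, fell by 0.39 log2 units and KRT8 fell by 0.17, KRT7, KRT18, KRT19 and MUC1 were not called, and the other 6 were too low to test, CFTR among them at 0 in all 6 libraries. The 7 fibroblast markers were summed at 240 to 256 CPM at 0 h and 138 to 153 CPM at 8 h, nearly all of it COL1A2, a chain of type I collagen, which fell from 243, 253 and 238 CPM to 145, 135 and 150.4 CPM (log2 fold change -0.78, edgeR adjusted p = 7.35e-13) and fell by 0.45 in CTRL cells. COL3A1 was at 0.631, 0.834 and 0.707 CPM at 8 h (log2 fold change -1.11, edgeR adjusted p = 0.00541), a call kept in 1 of the 6 fits that left out a library. The endothelial markers summed to 1.24 to 1.80 CPM at 0 h and 0.550 to 1.26 CPM at 8 h.

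How much of the 8 h change was also seen in cells without the cDNA can be read from CTRL cells, which share no library with the main comparison. There 259 of 15253 genes (1.70%) were DEGs, 138 higher (0.905%) and 121 lower (0.793%), and the share of higher genes, 53.3%, was 69.0% of 284 with library totals. Without replicate 1 at 8 h the count was 774, without replicate 3 at 8 h it was 339, and without any other CTRL library it was 92 to 105. Of the 4632 DEGs of the inducible cells that were also tested in CTRL cells, 3544 (76.5%) changed with the same sign there, 214 of them past the threshold, and 3 passed it with the opposite sign. The median size of the change over these genes was 0.28 in the inducible cells and 0.10 in CTRL cells. Over genes not called in the inducible cells 58.2% had the same sign. Of the 256 CTRL DEGs tested in both lines, 214 were also DEGs with the same sign in the inducible cells. Genes are not independent replicates, and these shares are given as a description.

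**Figure D4:**
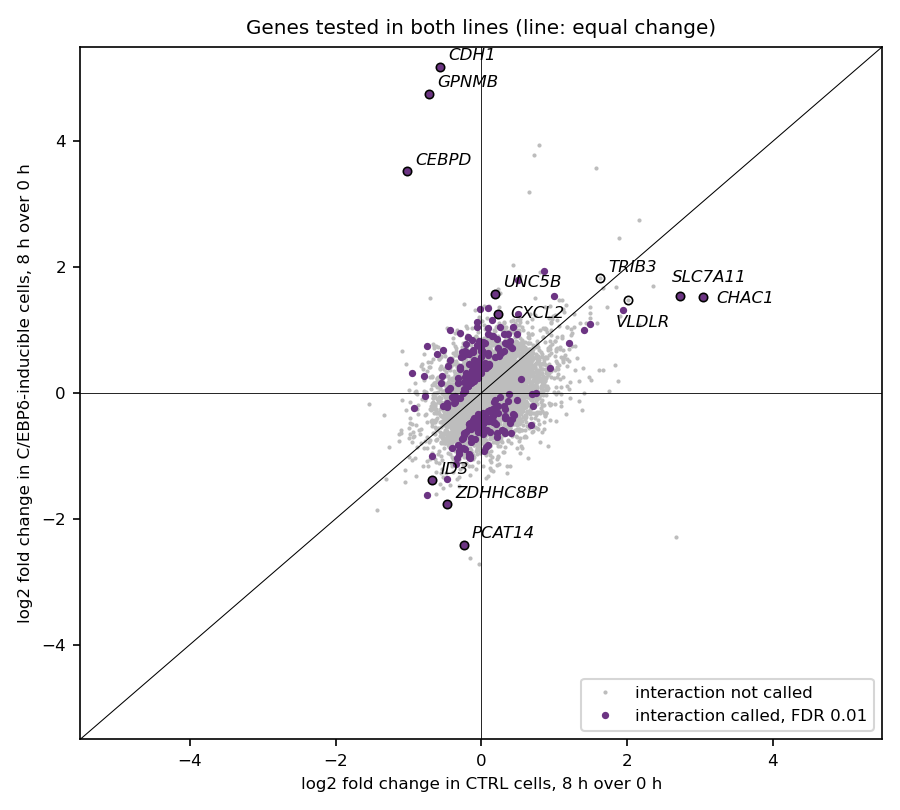
Log2 fold change of 8 h versus 0 h in CTRL cells (x axis) against that in C/EBPδ-inducible cells (y axis) for 14709 genes tested in both, with genes called in the test of the difference in purple. CDH1, GPNMB and CEBPD lie high above the diagonal, while SLC7A11 and CHAC1 rose in both lines and lie below it.

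The difference between the lines was tested directly in 12 libraries. Of 16228 genes 269 (1.66%) differed at FDR 0.01, 144 with a positive difference (0.887%), where the change in the inducible cells lay above that in CTRL cells, and 125 with a negative one (0.77%). With scaling by library totals 304 were called, and the share with a positive difference was 40.8% in place of 53.5%. The CTRL libraries at 8 h weigh on this count: without replicate 3 there were 1196 genes and without replicate 1 there were 380, and without any other library there were 131 to 147. Among the 6 genes highest in this test were CDH1 (log2 difference 5.79, SE 0.82, edgeR adjusted p = 0.00073), GPNMB (log2 difference 5.48, edgeR adjusted p = 0.000778) and CEBPD (log2 difference 4.56, edgeR adjusted p = 1.48e-09). UNC5B, a netrin receptor, rose from 18.3, 18.1 and 17.4 CPM to 55.2, 51.8 and 55.3 CPM in the inducible cells (log2 fold change 1.58, SE 0.053, edgeR adjusted p = 2.69e-15), whereas CTRL cells were at 4.25 ± 0.506 CPM and then 4.76 ± 0.262 CPM (SD, n = 3), and the difference was 1.42 (edgeR adjusted p = 1.55e-05). ABCG1, a sterol exporter (log2 difference 1.52, edgeR adjusted p = 0.00527), and LONRF3, a RING finger protein gene (log2 difference 1.46, edgeR adjusted p = 0.00642), complete the 6, each kept in 3 of the 12 fits that left out a library. On the other side stood PCAT14 (log2 difference -2.14, edgeR adjusted p = 0.00381, kept in 5 of the 12 fits that left out a library), CHAC1, ZDHHC8BP (log2 difference -1.27, edgeR adjusted p = 0.000156), SLC7A11, BTN3A2, a butyrophilin recognized by gamma-delta T cells (log2 difference -1.17, edgeR adjusted p = 0.00183), and NGFR, the p75 neurotrophin receptor (log2 difference -1.02, edgeR adjusted p = 0.0031).

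**Figure D5:**
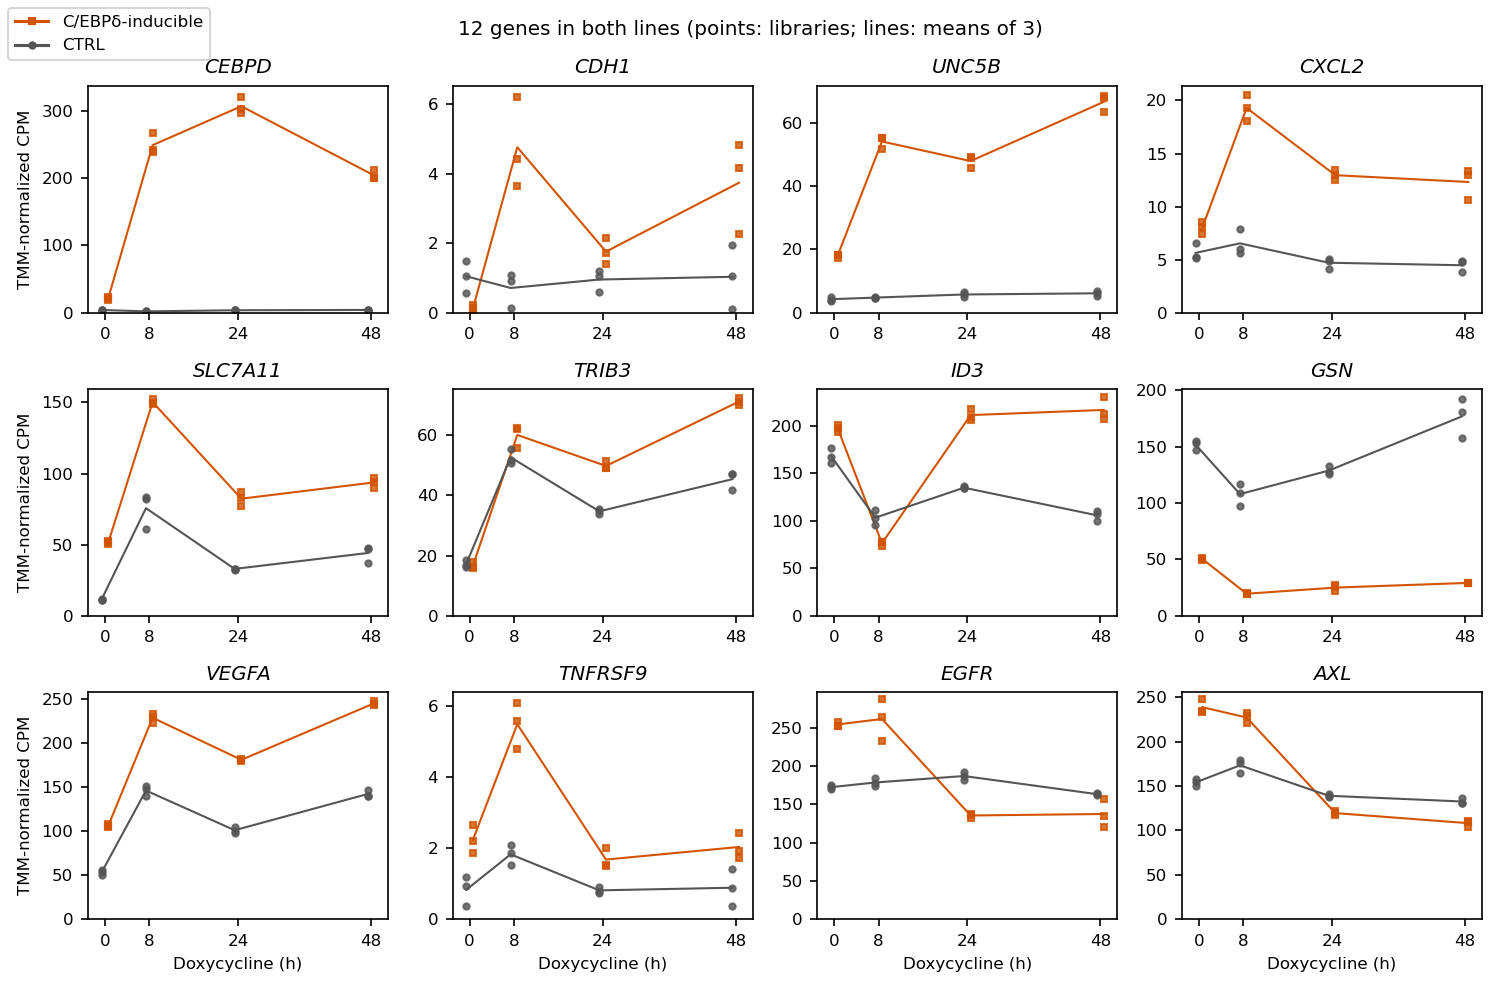
Expression (y axis, CPM) at 0, 8, 24 and 48 h (x axis) of 12 genes in C/EBPδ-inducible and CTRL cells, with a point for each library offset slightly along the x axis, and a line through the group means. CEBPD, CDH1 and UNC5B rise in the inducible cells at 8 h, ID3 is back at its 0 h level at 24 h, and EGFR and AXL are lower at 24 h but not at 8 h.

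Some genes that changed at 8 h had moved back by 24 h. GPNMB, COL12A1, ALCAM, TNFRSF9, SMAD6 and PCAT14 were chosen for the size of that return, so the return itself was built into the choice. Between 8 and 24 h 4591 of 15528 genes (29.6%) were DEGs, and since this test shares the 8 h libraries with the main comparison, no overlap between them is given. GPNMB was at 0.0543 ± 0.0534, 1.51 ± 0.730, 0.0894 ± 0.116 and 0.170 ± 0.207 CPM at 0, 8, 24 and 48 h (SD, n = 3). COL12A1 was at 0.213 ± 0.158, 1.69 ± 0.879, 0.124 ± 0.119 and 1.94 ± 2.7 CPM and ALCAM at 0.221 ± 0.104, 1.57 ± 0.138, 0.389 ± 0.0925 and 1.6 ± 0.190 CPM. TNFRSF9, the co-stimulatory receptor 4-1BB, was at 2.23 ± 0.402, 5.49 ± 0.656, 1.68 ± 0.283 and 2.03 ± 0.364 CPM. Its log2 fold change at 8 h was 1.29 in the inducible cells and 1.14 in CTRL cells, and the difference between lines was not called. For COL12A1 and ALCAM the mean at 48 h was again above that at 24 h, although for COL12A1 the SD at 48 h was above the mean. Of genes that were low at 8 h, SMAD6 was at 15.5 ± 0.332, 6.3 ± 0.719, 18.5 ± 1.25 and 11.7 ± 0.0458 CPM and PCAT14 at 6.68 ± 1.05, 1.27 ± 0.135, 3.74 ± 0.352 and 11.3 ± 0.644 CPM. ID3 was at 197 ± 3.77, 76.4 ± 2.27, 211 ± 5.95 and 216 ± 12.3 CPM and ID2 at 36.9 ± 0.844, 12.2 ± 1.78, 29.8 ± 3.18 and 29.9 ± 0.894 CPM. CDH1 was at 1.76 ± 0.374 CPM at 24 h and 3.74 ± 1.33 CPM at 48 h, and GSN was at 25.1 ± 2.49 and 29.2 ± 0.109 CPM against 50.5 ± 0.979 CPM at 0 h.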

How the data were processed

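The data are counts of reads per gene from 24 RNA-seq libraries of MIA PaCa-2 cells. The authors depleted ribosomal RNA from total RNA (KAPA RNA HyperPrep with RiboErase), sequenced 50-base reads, trimmed them with Trimmomatic (0.36 in the submitters' processing notes), used Hisat2 for alignment to GRCh38 and HTSeq for counting, and deposited the raw counts in a table of 60675 gene identifiers. The strand setting of the counting is not given in the sources used here, so overlapping antisense genes could share reads. Gene names came from GENCODE 44, which matched 56558 identifiers.

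Groups were taken from the sample labels, and the 6 libraries of C/EBPδ-inducible cells at 0 and 8 h entered the main comparison. Genes were filtered with filterByExpr, scaled by TMM and tested in R (4.3.3) with edgeR's quasi-likelihood test (4.0.16) and Benjamini-Hochberg adjustment at FDR 0.01. The study used an analysis of variance, which is among the alternatives. The difference between lines is the interaction of line and time in 12 libraries, and CTRL cells (8 versus 0 h) and inducible cells (24 versus 8 h) were fitted alike. Levels are CPM with TMM scaling over all 24 libraries. Ratios of summed counts carry exact 95% intervals for counting error only. DESeq2 (1.42.0) and limma (3.58.1) served for alternatives. The code was tested on simulated counts.

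Named genes were the C/EBP family; the 12 largest log2 fold changes in each direction among DEGs with a symbol, separate groups and a mean of at least 1 CPM in the higher group; the study's migration and EMT genes; up to 4 DEGs per list for 35 lists; the 6 largest in each direction in the interaction; and the 5 in each direction that returned most by 24 h. Other list members were named after their values were seen. The members and lists were chosen with earlier results of these data known. Promoter windows are RefSeq's (GRCh38.p14), 250 bases before to 50 after the start, and only bases before the start are shown, 30 of them where the window lies inside the gene as GENCODE places it. They matched 106 of 152 named genes. A few named genes are not reported here.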

Additional observations from a re-analysis of the deposited data

Results flagged for a closer look

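Among the named genes, 40 changed differently over 8 h in the 2 lines by the interaction test of edgeR at FDR 0.01, a threshold that 1.66% of all genes tested passed. The log2 difference, as change in C/EBPδ-inducible cells minus change in CTRL cells, is given for each, without an explanation. Genes of adhesion and of the cell surface were CDH1 (5.79), GPNMB (5.48), UNC5B (1.42), CLDN1 (0.894), PLAUR (0.401), KRT80 (-0.487), LAMB2 (-0.543), ITGA10 (-0.933), NGFR (-1.02) and BTN3A2 (-1.17). Transcription factors and their inhibitors were CEBPD (4.56), NFIL3 (0.969), EGR1 (0.833), KLF2 (-0.356), CEBPB (-0.518), ID3 (-0.674), CREB3L1 (-0.708) and ID2 (-0.853). Genes of signalling and secreted factors were CXCL2 (1.06), DUSP6 (0.884), EREG (0.802), MMP1 (0.669), SPRY4 (-0.277), CCN1 (-0.297), VEGFA (-0.359) and GADD45B (-0.532). Genes of metabolism and transport were ABCG1 (1.52), SLC2A3 (0.918), PLIN2 (0.599), CPT1A (0.497), SLC7A11 (-1.17) and CHAC1 (-1.50), and those of the mitochondrial genome were MT-ND1 (0.336), MT-CO3 (0.296) and MT-CO1 (0.275). The remaining genes were LONRF3 (1.46), the actin-binding genes MYPN (-0.503) and GSN (-0.877), the pseudogene ZDHHC8BP (-1.27) and the long non-coding RNA PCAT14 (-2.14).

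In an analysis of variance 22 of these 40 were no longer called. Of the 40 calls, 22 were kept in all 12 fits that left out a library each. CEBPB, CCN1, ID2, VEGFA, ABCG1 and LONRF3 were kept in 3 of 12, MMP1 and MT-CO3 in 4 of 12, PCAT14 in 5 of 12, MT-ND1 and SPRY4 in 7 of 12, CPT1A, LAMB2 and NGFR in 8 of 12, CXCL2 in 10 of 12 and GADD45B in 11 of 12. KLF2 and PLAUR were kept in 2 of 12. Groups of 3 are too small for a test of single outlying libraries.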

How the results depend on the processing

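The direction of the CEBPD change and its call held in every alternative run, with log2 fold changes of 3.44 to 3.59. The count of DEGs at 8 h, 4693, was 3127 when all 24 libraries shared an estimate of spread and 1239 in an analysis of variance on log2(CPM + 1), the cause of which was not tested, 3303 with DESeq2, and 4735 to 5053 with the other scalings, filters and settings, robust dispersions included, an option chosen after seeing the data. Leaving out a library gave 3925 to 4345. Of the genes in the lists 292 were DEGs, 130 in the analysis of variance, and 274 to 289 when a library was left out. The interaction count of 269 became 441 with all 24 libraries, 82 in the analysis of variance, 441 with DESeq2, 936 with no filter on low counts, and 131 to 1196 when a library was left out. The share of positive differences, 53.5%, was 63.9% with DESeq2, 65.0% with no filter and 40.8% with library totals. The CTRL count of 259 became 410 with DESeq2 and 843 with no filter, and 92 to 774 when a library was left out, the 774 without replicate 1 at 8 h, and its share on the higher side, 53.3%, became 38.3%, 42.3% and, with library totals, 69.0%. The count for 24 versus 8 h, 4591, lay between 3479 and 4868 under other settings and between 3541 and 4263 when a library was left out. EGFR, at 0.03 with all 6 libraries and not called, was at -0.0423 without replicate 3 of the inducible cells at 8 h and at up to 0.1077 without another library, and was not called in any of these fits. Of 137 named calls 118 were kept in all 6 fits that left out a library. In the analysis of variance, the test of the study, 69 of the 137 were no longer called. Low depth limits the genes under about 1 CPM, where ratios have wide intervals.

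Replicate numbers are shared by the groups, but correlations between wells of the same number were 0.0197, 0.063 and 0.0178 in the inducible cells and -0.242, -0.0321 and -0.0112 in CTRL cells, so the numbers were not taken to pair the wells. With the replicate number as a block the counts were 5053 at 8 h, 162 for the interaction, 87 in CTRL cells and 4587 for 24 versus 8 h.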

Other observations

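The 3 neighbours on chromosome 22 that were among the 12 largest decreases prompted a look at the genes around them, chosen after their values were seen. In the 188 kb from CES5AP1 to PCAT14 and 200 kb on either side, 8 genes were tested. At FDR 0.01, 4 were lower and none higher. The 3 neighbours are among these 4 and were picked for their falls, so their being lower was built into the choice. The fourth was BCR, a kinase and exchange factor gene upstream of the 3, which fell by 0.32 on the log2 scale (79.8 CPM at 0 h and 64.2 CPM at 8 h; edgeR adjusted p = 3.68e-07), with -0.05 in CTRL cells. The other 4 were RAB36 (log2 fold change -0.15), FBXW4P1 (-0.44), ENSG00000272578 (-0.32) and ZNF70 (-0.14), none of them called. Apart from the 3 neighbours, BCR alone was therefore lower, where 15.8% of all genes tested were lower. So few genes cannot show whether the region as a whole fell. The cause of the falls was not tested.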
